A study of Xenopus tropicalis with 26 samples.

Results

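Tailbud and neurula embryos of the western clawed frog, Xenopus tropicalis, were compared by whole transcriptome target sequencing (WTTS), a method that fragments RNA, keeps the polyadenylated pieces and so counts transcripts near their 3′ ends. The comparison comprised 4 of the 26 libraries of the series: the 2 stage 28 libraries and the 2 stage 15 libraries, chosen by stage and method from the labels, each stage with embryo pools of family 1 and family 2. The error came from all 10 embryo WTTS libraries, of the same families: stages 6 and 8, stage 11, and the 2 stages compared. Levels in adults came from 4 further WTTS libraries of whole bodies: trials 6 and 7 of 1 RNA pool made from adults of both sexes, and 2 technical repeats of 1 adult female. No genotype, strain or treatment is given in the labels. Each embryo library is a pool, so differences between single embryos cannot be seen, and the adult libraries repeat the same RNA, so their spread holds no difference between animals.

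In the usual staging of Xenopus, a stage 15 neurula is folding its neural plate, and a stage 28 tailbud embryo has a closed neural tube, segmented trunk muscle, forming eyes and the beginnings of heart and blood. By both stages the zygotic genome has been active since before gastrulation, while part of the RNA laid down in the egg has been cleared. Transcripts that rise between these stages are in general those of differentiating tissues, and those that fall include genes of early patterning and remaining egg RNA. These are textbook statements about the stages, and the counts below were not assigned to tissues. The table gives features by XLOC identifier, scaffold, start, end and strand. The files do not pair these with gene names, and 0 of 27836 identifiers matched the RefSeq gene table for the assembly UCB_Xtro_10.0, so marker genes of the labelled stages could not be looked up.

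The 2 stage 28 libraries held 6272890 (family 1) and 2549479 (family 2) counts, and the 2 stage 15 libraries 2932664 and 2254128. The adult libraries were deeper, from 11403853 to 23922835 counts. The 10 most abundant features took 17.2% and 10.8% of the stage 28 counts, against 29.2% and 25.4% of the stage 15 counts. Levels are given as normalised CPM, counts over the library total in CPM units after TMM scaling of the 10 embryo and 4 adult libraries together. Over both libraries of a stage, 3 counts correspond to 0.357 CPM at stage 28 and 0.745 CPM at stage 15, which was taken as the floor where a feature had 0 counts.

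Of 14013 features tested, 3723 differed between tailbud and neurula embryos (26.6%), 1950 higher at stage 28 (13.9% of the features tested) and 1773 lower (12.7%). Calls rest on edgeR's quasi-likelihood test with family as a block and a Benjamini-Hochberg adjusted p below 0.05. All adjusted p-values and standard errors (SE) of log2 changes come from this test unless another is named. The median log2 change was 2.07 among features called higher, with quartiles of 1.43 and 3.12, and -1.58 among features called lower, with quartiles of -2.44 and -1.15. With the 69 features at 0 counts at stage 15 and the 30 at 0 counts at stage 28 set at the floor, the medians were 2.06 and -1.57. Over all tested features the median was 0.05. A log2 change of at least 2 in size was reached by 1015 of the features called higher and by 610 of those called lower, with features at 0 counts set at the floor. In bulk libraries of whole embryos, a higher level can come from more cells of a type or from more RNA per cell, and these cannot be told apart.

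All 4 libraries bore on the number of calls. Leaving out family 1 of stage 28 left 1460 calls, leaving out family 2 of stage 28 left 2264, leaving out family 1 of stage 15 left 1229 and leaving out family 2 of stage 15 left 2112. A stage then rests on 1 pool, which is assumed to vary like the other pools. Most of these calls were among the 1950 and the 1773. They were 732 of 754 higher and 667 of 706 lower calls without family 1 of stage 28, and 1209 of 1311 and 902 of 953 when its family 2 was left out. They were 572 of 579 higher and 637 of 650 lower calls without family 1 of stage 15, and 912 of 982 and 1065 of 1130 when its family 2 was left out. Testing against a log2 change of at least 1, in place of 0, gave 1253 features (8.94% of those tested), 706 higher and 547 lower. With no family term in the model, 1384 were called higher and 1173 lower.

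The 2 families moved mostly in the same direction. The change was larger in family 1 for 1219 of the 1950 called higher and 1131 of the 1773 called lower. The share over all tested features was not worked out, so these counts do not show a trait particular to called features. Per family the median log2 change of features called higher was 2.02 in family 1 and 1.82 in family 2, and that of features called lower was -1.61 in family 1 and -1.42 in family 2 (log2 of CPM + 0.5). Changes in family 1 and in family 2 share no library. Across all 14013 features, which are not independent replicates, their Spearman correlation was 0.697, and 0.732 in the 10086 more abundant ones (mean log2 CPM of 3 or more). All 1950 features called higher rose in both families, and 1769 of the 1773 called lower fell in both, where 76.4% of all tested features had the same sign in both. The calls used these same libraries. Both stage 28 values lay above both stage 15 values for 1933 of the features called higher, and below for 1732 of those called lower, against 31.7% and 28.8% of all tested features.

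**Figure D1:**
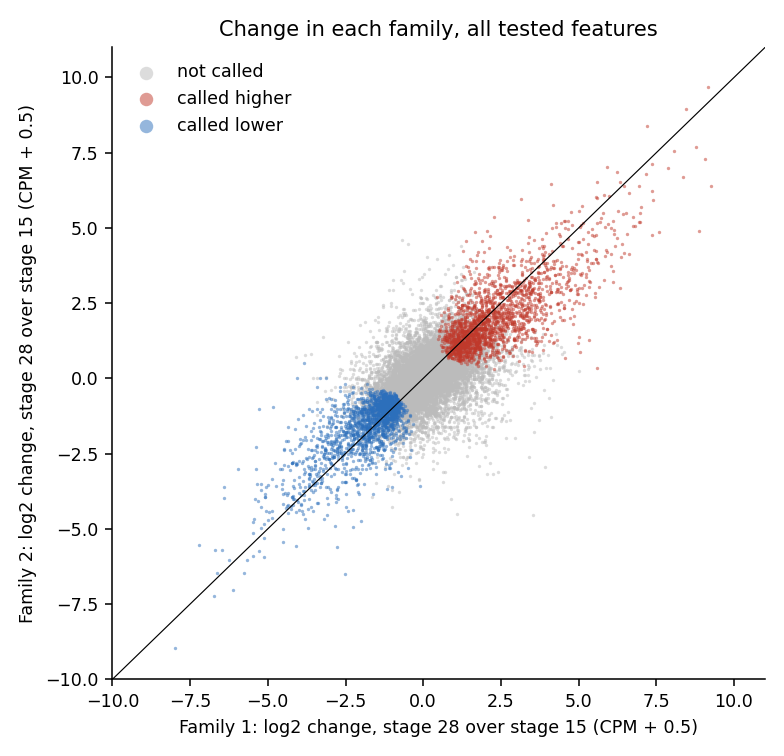
Log2 change of stage 28 over stage 15 (CPM + 0.5) in family 1 (horizontal) and family 2 (vertical) for each of the 14013 tested features, in red where called higher, in blue where called lower, in grey where not called; the line marks equal change. Called features lie along the line in both directions, and the Spearman correlation over all points was 0.697.

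The features called higher held 27.1% and 25.5% of the counts of the stage 28 libraries (families 1 and 2), against 6.70% and 6.76% of the stage 15 libraries. The features called lower held 12.9% and 13.5% of the stage 28 counts, against 32.7% and 29.7% of the stage 15 counts. In neither set did the 2 stages overlap, which follows from calling the features on these same 4 libraries. The stages before neurula entered the fit but not the contrast, and lay nearer to stage 15 than to stage 28 in both sets. In the 6 libraries of stages 6, 8 and 11, features called higher held from 4.86% to 7.79% of counts, and features called lower from 24.0% to 33.1%. In features called lower, stages 6 and 8 (24.0% to 27.1%) lay below stage 15. With the calls made without 1 library, these shares shrank with the number of calls. The shares were still means over both libraries of a stage, the left-out library included. When stage 28 of family 1 was left out, features called higher held 11.5% of stage 28 counts and 1.79% of stage 15 counts, and when stage 28 of family 2 was left out, 22.4% and 5.35%. When stage 15 of family 1 was left out they held 10.8% and 1.62%, and for stage 15 of family 2, 12.7% and 2.03%. Features called lower held 6.06% of stage 28 counts and 18.0% of stage 15 counts, 6.15% and 16.8%, 3.94% and 13.99%, or 7.66% and 20.6%, in the same order.

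**Figure D2:**
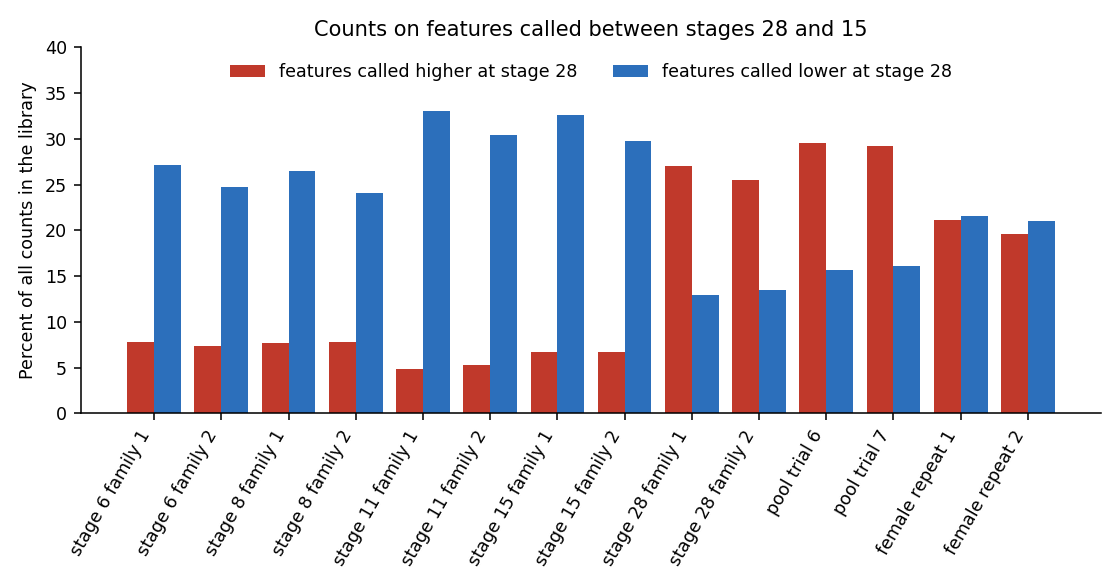
Percent of all counts in each library (vertical) that fell on the 1950 features called higher at stage 28 (red) and the 1773 called lower (blue), for the 10 embryo WTTS libraries by stage and the 4 adult WTTS libraries. Red bars reach 27.1% and 25.5% at stage 28 and stay below 8% at every earlier stage. In red, the adult pool (29.6% and 29.2%) and female (21.1% and 19.6%) lie nearer to stage 28 than to any earlier stage. In blue, the pool (15.7% and 16.1%) lies nearer to stage 28 (12.9% and 13.5%). The female (21.6% and 21.1%) lies nearer in blue to stages 6 and 8 (24.0% to 27.1%).

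The features with the largest fitted rise had no read at stage 15, so their fold changes are lower bounds. These bounds take stage 15 at 3 counts. They cannot be ranked against the ratio of XLOC_026225, given further on, which rests on 1 count there. XLOC_027199 (scaffold_9:59467542-59469301, minus strand) had 286 CPM in family 1 and 408 CPM in family 2 at stage 28, against 0 counts in both families at stage 15. This is at least 466-fold higher (adjusted p = 4.81e-06), and only 2 counts fell on the feature in the 6 earlier libraries together. Its level in adults was between that of the stages, at 123 and 96.5 CPM in the pool and 163 and 90.0 CPM in the female. XLOC_026402 (scaffold_9:86220462-86228260, plus strand) had 135 and 94.6 CPM at stage 28, against 0 counts at stage 15, which is at least 154-fold higher (adjusted p = 2.08e-05). It had 1 count in the 6 earlier libraries and at most 0.209 CPM in any adult library, so that among these 14 libraries it stood above 1 CPM at tailbud alone. Both features pass the count filter only through their stage 28 libraries, so their calls as higher were nearly fixed beforehand. With DESeq2 both calls were lost, with an adjusted p of 0.0501 for XLOC_027199 and 0.0998 for XLOC_026402. In the other alternatives all adjusted p-values of both features were below 0.05. The range over the 13 alternatives was 8.27e-61 to 0.0501 for XLOC_027199 and 4.50e-37 to 0.0998 for XLOC_026402.

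Among features called higher, those with the highest tailbud level were already present in the neurula. XLOC_012557 (scaffold_4:20413517-20435374, plus strand) reached 6779 and 3156 CPM at stage 28, against 648 and 481 CPM at stage 15 (log2 change 3.14, SE 0.48, adjusted p = 0.000635). It had between 4.83 and 15.1 CPM in the 6 libraries of stages 6 to 11, and its adult level was of the same order as at tailbud, from 1913 to 6153 CPM. XLOC_024090 (scaffold_8:10927024-10938479, minus strand) reached 5058 and 3006 CPM at stage 28, against 53.0 and 107 CPM at stage 15 (log2 change 5.66 ± 0.45 SE, adjusted p = 7.39e-06). Before neurula it had at most 0.886 CPM. In adults it was nearly absent, with 3.28 and 4.75 CPM in the pool and 0.299 and 0.339 CPM in the female. These features thus had a similar tailbud level and adult levels that were far apart.

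The features with the largest fitted fall had 0 counts at stage 28, so that their fold changes are bounds too. They cannot be ranked against the measured fall of XLOC_012434, given further on. XLOC_019325 (scaffold_6:105393634-105403614, minus strand) had 0 counts in both stage 28 libraries, against 17.0 and 13.7 CPM at stage 15, which is at least 43.0-fold lower (adjusted p = 3.48e-05). Its level ran from 83.1 and 58.7 CPM at stage 6 through 89.4 and 93.3 CPM at stage 8 and 49.6 and 23.8 CPM at stage 11. In adults it was back at the stage 6 to 8 level, at 73.6 and 102 CPM in the pool and 76.9 and 128 CPM in the female. XLOC_023489 (scaffold_8:70676076-70677968, plus strand) also had 0 counts at stage 28, against 16.5 and 7.10 CPM at stage 15, which is at least 33.1-fold lower (adjusted p = 0.00029). In contrast to XLOC_019325, it had at most 0.456 CPM at stages 6 and 8, 85.7 and 14.4 CPM at stage 11, and at most 0.0440 CPM in the adult libraries.

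The falling features with the highest neurula level were among the most abundant of the embryo. XLOC_023925 (scaffold_8:106807410-106826726, plus strand, overlapping a feature on the other strand) had 6567 and 1590 CPM at stage 28, against 23104 and 10228 CPM at stage 15 (log2 change -2.21 ± 0.48 SE, adjusted p = 0.00545). Family 1 was above family 2 at both stages, and the call was lost without family as a block (adjusted p = 0.106) and without family 2 of stage 28 (0.0564). Over its 12 alternatives the adjusted p ran from 1.26e-15 to 0.106. XLOC_015968 (scaffold_5:79662113-79676144, plus strand) had 2313 and 1169 CPM at stage 28, against 14132 and 10020 CPM at stage 15 (log2 change -2.85 ± 0.37 SE, adjusted p = 0.000197). In adults XLOC_015968 was below both stages, at 242 and 275 CPM in the pool and 897 and 617 CPM in the female. XLOC_023925 had 1474 and 1680 CPM in the pool and 3854 and 3142 CPM in the female. These values were all below stage 15, but only 1474 CPM was below the 1590 CPM of family 2 at stage 28.

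**Figure D3:**
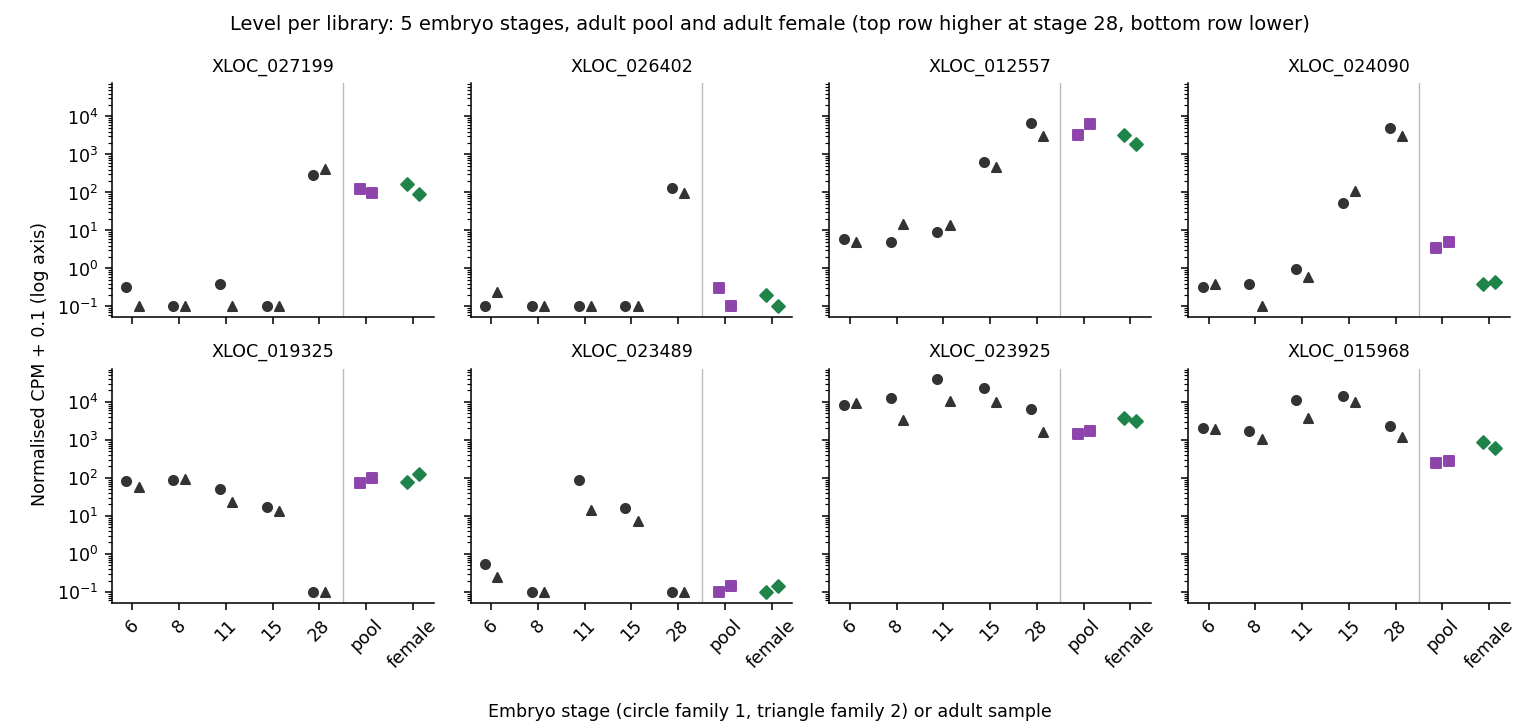
Normalised CPM + 0.1 (log axis) of the 8 features with the largest fitted change or the highest level, in each embryo library by stage (circle family 1, triangle family 2), in the 2 adult pool libraries (squares) and the 2 female libraries (diamonds). Top row higher at stage 28, bottom row lower; XLOC_026402 and XLOC_024090 were low again in adults, XLOC_019325 was at 73.6 to 128 CPM there.

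Seen over the whole embryo series, most features called higher peaked at tailbud, while those called lower had peaked at several times. Of the 1950 features called higher, 1538 (78.9%) had their highest mean CPM at stage 28, where 27.9% of all tested features had it. A further 400 (20.5%) had it at stage 6 or 8, so that they were high in the early embryo, low at neurula and higher again at tailbud. Of the 1773 called lower, 700 (39.5%) peaked at stage 15, 489 (27.6%) at stage 11 and 584 (32.9%) at stage 6 or 8, against 17.2%, 14.3% and 40.6% of all tested features. Whether a peak stage differs from the runner-up was not tested, and the calls use the stage 15 and 28 libraries, so the peaks are a description. Both stage 28 values lay above all 8 earlier libraries for 1359 of the features called higher, and below all 8 for 914 of those called lower, against 16.5% and 12.97% of all tested features. Without family 1 of stage 15, 88.1% of the features called higher peaked at stage 28 and 11.9% at stage 6 or 8. Without each of the other 3 libraries, these shares were from 80.8% to 82.5% and from 17.2% to 18.8%.

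In median level, features called higher went from 6.44 CPM at stage 6 through 6.79, 5.79 and 6.48 CPM at stages 8, 11 and 15 to 28.95 CPM at stage 28. The medians of features called lower were 42.4, 37.8, 53.6, 52.7 and 16.04 CPM at the same stages. A small group was first seen at tailbud. Only 30 of the tested features had at most 3 counts in the 8 earlier libraries together. Such a feature passes the count filter only through its stage 28 libraries, so its call as higher was nearly fixed beforehand. Of the 30, 29 were called higher, and their stage 28 means ran from 4.26 to 347 CPM. Their median at stage 28 was 7.94 CPM. Of these 29, 12 stayed under 1 CPM in all 4 adult libraries, against 5.27% of all tested features. In both adult samples, 6 were at or above their stage 28 mean, against 36.1% of all tested features. Another 15 were between the stages in both, against 9.82%, and a feature under 1 CPM can be among these. At these depths an earlier level below the floor would not have been detectable. Calls without 1 library gave 15 such features when stage 28 of family 1 was left out, and 11 and 17 when stage 15 of family 1 or of family 2 was left out.

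The adult libraries, which had no part in the contrast, were then set beside the stage means. For each feature, the mean of the 2 pool libraries and that of the 2 female libraries were each placed at or above both stages, between them, or at or below both. Among features called higher, 540 (27.7%) were at or above their stage 28 mean in both adult samples, 533 (27.3%) were between the stages and 400 (20.5%) were at or below their stage 15 mean. In the remaining 477 the pool and the female fell in different classes. Among features called lower, 521 (29.4%) were at or above their stage 15 mean, 331 (18.7%) between and 568 (32.0%) at or below their stage 28 mean. Over all tested features the shares were 36.1% above, 9.82% between and 33.4% below. The stage means of features that were not called lie closer together, so fewer adult values can fall between them. The sizes of the classes depend on where their limits lie. With a margin of 2-fold beyond the stage means, 211 of the features called higher were above and 200 below, and 266 of those called lower were above and 370 below. With no family term, 342 of the features then called higher and 330 of those called lower were above, and with unscaled library totals 201 of the features called lower were between.

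Adult class went with the stage of the highest mean, in called features and in all tested features. Of the 400 features called higher that peaked at stage 6 or 8, 308 (77.0%) were at or above both stages in both adult samples, against 228 (14.8%) of the 1538 that peaked at stage 28. Of the 700 features called lower that peaked at stage 15, 422 (60.3%) were at or below both stages in both adult samples and 20 (2.86%) above. Of the 584 called lower that peaked at stage 6 or 8, 419 (71.7%) were above and 3 (0.514%) below. Among all tested features, 69.4% of the 5691 that peaked at stage 6 or 8 and 14.3% of the 3907 that peaked at stage 28 were above. Of the 2415 that peaked at stage 15, 70.2% were below and 5.92% above. The peak is set by the same stage means as the adult classes, so a feature that peaks at stage 15 or 28 has its adult level set against its highest stage mean. These are counts of features, given without a test.

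**Figure D4:**
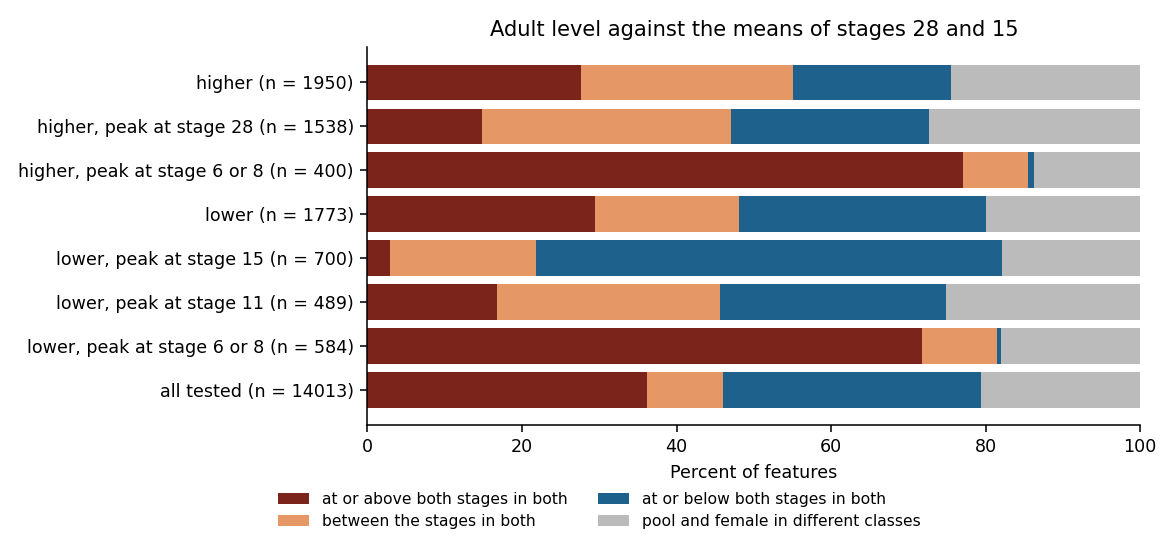
Percent of features (horizontal) whose level in both adult samples was at or above, between, or at or below the means of stages 28 and 15, or in different classes in the pool and the female (grey), for features called higher or lower, split by the stage of their highest mean, and for all tested features. Features that peaked at stage 6 or 8 were mostly above both stages in adults (77.0% and 71.7%), and those called lower that peaked at stage 15 mostly below (60.3%).

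Each class held features of large change. XLOC_022873 (scaffold_8:9772897-9784040, plus strand, overlapping a feature on the other strand) had 40.2 and 45.6 CPM at stage 28, against 0 counts at stage 15, which is at least 57.6-fold higher (adjusted p = 0.000155). It went on to 244 and 189 CPM in the pool and 74.9 and 129 CPM in the female. XLOC_018853 (scaffold_6:25797582-25802672, minus strand) had 81.8 and 69.3 CPM at stage 28, against 0 counts at stage 15, which is at least 101.4-fold higher (adjusted p = 7.39e-06). Its 4 adult libraries lay between, from 43.9 to 55.0 CPM. XLOC_026225 (scaffold_9:74073028-74076960, plus strand) had 269 and 158 CPM at stage 28, against 0 counts and 1 count at stage 15, and 0 CPM in all 4 adult libraries. The stage 28 level was 923 times that of stage 15, with a 95% exact interval of 166 to 36493 that covers counting error only (adjusted p = 5.93e-06). XLOC_022873, XLOC_018853 and XLOC_026225 also pass the count filter only through stage 28, so their calls as higher were nearly fixed beforehand.

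Among the features called lower, XLOC_025406 (scaffold_8b:1473863-1477898, minus strand) had 1 count and 0 counts at stage 28, against 22.9 and 7.10 CPM at stage 15. The level at stage 15 was 127 times that at stage 28, with an exact interval of 22 to 5109 (adjusted p = 1.40e-05). It was highest at stage 11, with 296 and 145 CPM, and had from 43.2 to 96.1 CPM in adults. XLOC_020154 (scaffold_7:6225655-6227479, plus strand) had 0 counts at stage 28, against 16.5 and 6.59 CPM at stage 15, which is at least 32.4-fold lower (adjusted p = 7.63e-05). In adults it had 0 and 0.616 CPM in the pool and 0 and 0.254 CPM in the female, so 1 repeat of each had no read. The adult means of 0.308 and 0.127 CPM lie below the stage 28 floor of 0.357 CPM. It is between the stages only because no floor was used for the classes. XLOC_012434 (scaffold_4:9582172-9588436, plus strand) had 3.33 and 0.666 CPM at stage 28, against 977 and 579 CPM at stage 15 (log2 change -8.41 ± 0.69 SE, adjusted p = 8.66e-06). Its adult libraries held at most 0.299 CPM. Close to XLOC_025406, XLOC_025407 (scaffold_8b:1484228-1493134, minus strand) had 0.370 and 0.666 CPM at stage 28, against 86.6 and 103 CPM at stage 15 (log2 change -7.48 ± 0.55 SE, adjusted p = 4.81e-06). It peaked at stage 11, at 219 and 292 CPM, and stayed below 1 CPM in all adult libraries.

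Under 1 CPM in all 4 adult libraries were 117 (6.00%) of the features called higher and 156 (8.80%) of those called lower, against 5.27% of all tested features. All 117 had their highest mean at stage 28. Of the 156, 87 had it at stage 15 and 68 at stage 11. Of all 739 tested features under 1 CPM in adults, 251 peaked at stage 28 and 237 at stage 15. A further 189 peaked at stage 11 and 62 at stage 6 or 8.

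The adult samples differed in how they took up these features. Features called higher at tailbud held 21.1% and 19.6% of the counts of the female, against 29.6% and 29.2% of those of the pool, and features called lower held 21.6% and 21.1% in the female, against 15.7% and 16.1% in the pool. Both female libraries were above both pool libraries for 296 (15.2%) of the features called higher and 631 (35.6%) of those called lower, where 26.7% of all tested features were. The opposite held for 903 (46.3%) of the features called higher and 302 (17.0%) of those called lower, where it held for 25.7% of all tested features. Among the 584 features called lower that peaked at stage 6 or 8, the female was above the pool for 294 (50.3%) and below it for 36 (6.16%), against 39.3% and 11.9% of all tested features that peaked there. The pool and the female are 1 RNA sample each, so these are differences between those samples. Technical repeats lay within 2-fold of each other for 90.6% of the tested features in the pool and 90.1% in the female.

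Some called features lay next to each other. Of 13337 pairs of neighbouring tested features on a scaffold, both were higher in 338 (2.53%) and both lower in 256 (1.92%), and 386 pairs (2.89%) held 1 of each. Of the 338 and 256 pairs, 317 and 235 did not overlap. With no family term the counts were 176 and 144. Leaving out stage 28 of family 1 gave 66 and 56, stage 28 of family 2 gave 153 and 96, stage 15 of family 1 gave 50 and 44, and stage 15 of family 2 gave 100 and 129. Runs of at least 4 neighbours called alike numbered 10 in the higher and 7 in the lower direction, and the longest held 5 and 6 features. As 13.9% and 12.7% of the tested features were called higher and lower, some alike pairs and runs arise where calls are independent of position. How many was not worked out, so these counts do not show that called features are grouped.

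One run of 5 features called higher lay on scaffold_9:59467542-59538016, with all 5 on the minus strand, no overlap and no untested feature between. It opens with XLOC_027199, described above. Next to it, XLOC_027200 had 144 and 337 CPM at stage 28, against 1 count in each library of stage 15, 430 times as much (exact counting interval 119 to 3550; adjusted p = 6.28e-06). XLOC_027201, with 27.6 and 33.97 CPM at stage 28, and XLOC_027202, with 36.8 and 56.9 CPM, had 0 counts at stage 15, and were at least 41.3-fold (adjusted p = 0.000658) and at least 63.0-fold higher (adjusted p = 5.97e-05). XLOC_027203 had 278 and 439 CPM at stage 28, against 3.89 and 6.08 CPM at stage 15 (log2 change 6.15 ± 0.45 SE, adjusted p = 4.81e-06). The features from XLOC_027199 to XLOC_027202 pass the count filter only through stage 28, so their calls were nearly fixed beforehand. All 5 features of the run were higher in family 2 than in family 1 at stage 28.

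In adults these neighbours parted. XLOC_027199 kept between 90.0 and 163 CPM and XLOC_027203 between 12.404 and 28.5 CPM, whereas XLOC_027200 had at most 1.33 CPM and XLOC_027201 and XLOC_027202 at most 0.1 CPM in any adult library. How reads that match several near-identical copies were counted is not stated in the labels or the table, so levels of neighbours are uncertain if they are copies of each other.

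The other run of 5, from XLOC_001400 to XLOC_003179 on scaffold_1:167023187-167487814, changed far less and on both strands, with log2 changes between 1.12 and 3.22. Its members XLOC_003178 and XLOC_001402 overlap on opposite strands. XLOC_001400 had 42.4 and 30.6 CPM at stage 28, against 4.38 and 3.55 CPM at stage 15 (log2 change 3.22, SE 0.56, adjusted p = 0.00147). XLOC_003179 had 22.2 and 26.97 CPM, against 9.73 and 13.2 CPM (log2 change 1.12, SE 0.35, adjusted p = 0.0315). The call of XLOC_003179 was lost in 7 of 13 alternatives, among them the fits without each of the 4 libraries, where the adjusted p lay between 0.0826 and 0.172. Over all 13 it lay between 0.0317 and 0.547.

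The longest run called lower held 6 features on scaffold_7:21449929-21511012, on both strands, with no overlap and no untested feature between. At its start, XLOC_020306 had 1 count and 0 counts at stage 28, against 10.2 and 5.58 CPM at stage 15, which was 66.8 times the stage 28 level (exact counting interval 11.2 to 2719; adjusted p = 0.00154). At its end, XLOC_021490 had 5.55 and 1.66 CPM at stage 28, against 59.3 and 19.8 CPM at stage 15 (log2 change -3.39 ± 0.42 SE, adjusted p = 0.000216). The stage 28 means of the 6 features reached at most 3.66 CPM, and the stage 15 means ran from 4.72 to 45.1 CPM. All 6 were at most at 1.14 CPM at stages 6 and 8, were present at stage 11 with 1.98 to 84.5 CPM, and were under 1 CPM in all 4 adult libraries. At stage 28, 3 of the 6 still had reads in both libraries.

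**Figure D5:**
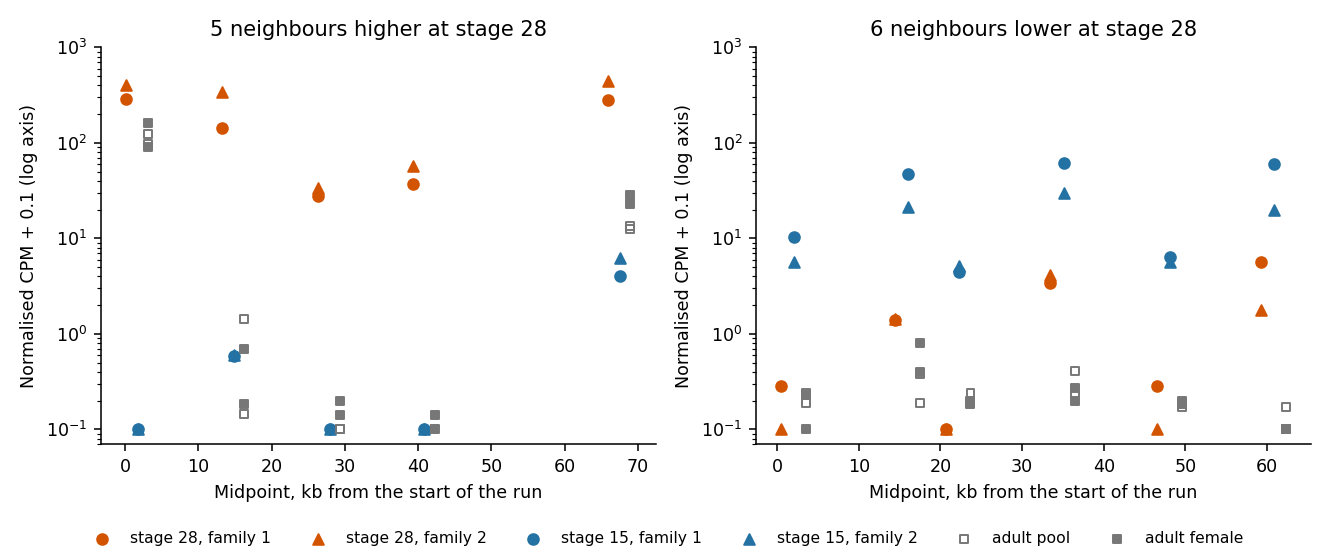
Normalised CPM + 0.1 (log axis) of the 5 neighbours higher at stage 28 (left) and the 6 neighbours lower at stage 28 (right), by the distance of their midpoint from the start of the run in kb, at stage 28 (orange), at stage 15 (blue) and in the adult pool (open squares) and female (filled squares); points of 1 feature are set slightly apart. The 2 stages do not overlap for any of the 11 features, which were called on these same libraries. Adult values are low on the right throughout.

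Short features fell more often than long ones. Of 578 tested features spanning under 3 kb, introns included, 134 (23.2%) were called lower and 58 (10.0%) higher, with a median log2 change of -0.50. Of 5597 spanning 30 kb or more, 486 (8.68%) were called lower and 872 (15.6%) higher, with a median of 0.19. Features of 3 to 10 kb had a median of -0.0039, with 15.2% called lower and 15.9% higher. Features of 10 to 30 kb had a median of -0.05, with 14.5% called lower and 11.4% higher. The share called higher thus did not follow span. Level differed too, with a median of the mean log2 CPM of 3.12 under 3 kb and from 4.16 to 4.40 in the other classes. The medians were alike in the 2 families, at -0.43 and -0.47 for features under 3 kb and 0.20 and 0.18 for those of 30 kb or more. Of the features under 3 kb, 19.7% were under 1 CPM in all adult libraries, against 2.88% of those of 30 kb or more. The difference between span classes was not tested, and with no filter on low counts the median under 3 kb was 0.11 and that of 30 kb or more 0.26.

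Calls also went with level. Features with a mean log2 CPM over 7 were called lower in 30.6% and higher in 13.05% of 1341 cases, with a median SE of 0.28. At a mean log2 CPM of 1 to 3 the 3872 features were called lower in 4.42% and higher in 14.8% of cases, with a median SE of 0.72, and the called ones had a median size of change of 3.05. With the larger SE, a change of a given size passed the threshold less easily in weakly expressed features. That median size is of called features only. The parts of depth and of spread between pools in the SE were not tested. An overlap with the opposite strand was found for 22.6% of the tested features, for 20.1% of those called higher and for 19.9% of those called lower. Whether counting used strand is not stated either, so reads of such partners may not be told apart.

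The families were also compared in the size of the change itself. The difference of the changes, family 2 minus family 1, passed the threshold at 1 feature, which is 0.00714% of those tested, and 453 (3.23%) had an unadjusted p below 0.05. The error of this test comes from stages 6, 8 and 11, with 2 residual degrees of freedom per feature, moderated across features. XLOC_022159 (scaffold_7:104927510-104939963, minus strand, overlapping a feature on the other strand) had 617.6 CPM at stage 28 and 40.4 CPM at stage 15 in family 1, and 12.3 CPM at stage 28 and 98.9 CPM at stage 15 in family 2. The log2 difference was -6.94 (SE 0.65, adjusted p = 0.0446). XLOC_005667 (scaffold_18:596568-609686, minus strand) had 685 and 56.9 CPM in family 1, and 11.99 and 42.6 CPM in family 2, with a difference of -5.42 (SE 0.69, adjusted p = 0.228). XLOC_005667 had at most 1 count per library at stages 6 and 8, and 83 and 32 counts at stage 11. Each value is 1 pool, so families and pools cannot be told apart. With no filter on low counts 76 features passed, with DESeq2 2 and with limma-voom 0.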

How the data were processed

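The authors deposited raw counts, whole numbers per feature and not normalized, for 27836 features in 26 libraries, per the file headers. Per the labels' protocols, RNA was extracted with Trizol and WTTS libraries were made by fragmentation, enrichment of polyadenylated RNA, synthesis of cDNA, sizing and amplification. For aligner, counting program, genome build and annotation, nothing is given in the sources used here. With family as a block, p-values rest on the spread left after stage and a constant difference between the 2 families are removed. This spread reflects how unevenly the stage changes repeat in the families. No stage has repeat pools of the same family, so the spread between such pools was not measured. Positions are as in the deposited table.

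From these counts, edgeR 4.0.16 in R 4.3.3 was used with TMM scaling, filterByExpr (14013 features kept), stage as factor and family as block over the 10 embryo WTTS libraries, and the quasi-likelihood F-test. The SE was taken as the size of the log2 change over root F. The family difference had 1 added term each for family 2 at stages 15 and 28. Alternatives used DESeq2 1.42.0 and limma 3.58.1. Counts, classes and figures were made in Python 3.11.15 (pandas 2.3.3, scipy 1.17.1, numpy 2.4.6, matplotlib 3.10.9). The fit was also run on counts simulated from its own model, with known changes at stage 28 and no family effect. That run cannot show how well the model describes these libraries.

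Families 1 and 2 are named in the labels of all stages and so pair the libraries. Family deviations of 9802 features (mean CPM 8 or more) correlated at 0.349 between stages 28 and 15, and between 0.105 and 0.398 over all pairs of stages. No replicate pair agreed within sampling noise (chi-square per degree of freedom 27.3 to 101).

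The members, the designs and the naming rule were chosen with earlier results of these data known. The rule took, among called features with separate stage values and mean log2 CPM not below 3, the 2 with the largest fitted change and the 2 with the highest level in each direction. It also took the leading ones of each adult class, the smallest p of the family difference and the ends of the longest runs of neighbours. Where 2 runs tied, both are given. The text gives the leading feature of each adult class. Features outside the rule are members of these runs and were chosen after their values were seen. Marker gene lists had no use here, as no feature has a name.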

Additional observations from a re-analysis of the deposited data

Results flagged for a closer look

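One feature stood apart because its change between stages 28 and 15 differed between the families. For XLOC_022159 the log2 change of family 2 minus that of family 1 was -6.94 (SE 0.65, adjusted p = 0.0446, edgeR), with a log2 change of 3.92 in family 1 and -2.95 in family 2 (CPM + 0.5). Its values rest on 3337 counts in family 1 and 37 in family 2 at stage 28, and on 83 and 195 counts at stage 15. The error comes from stages 6, 8 and 11, where the feature had at most 26 counts per library. It is also a feature on which technical repeats of the same RNA lay far apart, with 157 and 2.92 CPM in the 2 female libraries and 10.0 and 49.4 CPM in the 2 pool libraries. Another feature lies over it on the opposite strand. The part of library differences in this result was not tested.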

How the results depend on the processing

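No feature called in 1 direction was called in the other under any alternative. Against a log2 change of at least 1, 1253 features passed, 706 higher and 547 lower. With no replicate block, 1173 were called lower, and the adult-above classes held 342 of the features called higher and 330 of those called lower. Peaks at stage 6 or 8 numbered 246 higher and 356 lower, like neighbours 176 and 144, and the features called higher held 16.9% of stage 28 and 3.28% of stage 15 counts, those called lower 6.73% and 18.7%. The block otherwise changed 2 named calls, XLOC_023925 and XLOC_003179.

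With no filter on low counts, the features called higher held 29.0% and 7.69% of the counts and those called lower 21.99% and 52.8%. First-seen features then numbered 48, family differences 76, and the span medians were 0.11, 0.16, 0.11 and 0.26 from short to long, so that those of the 3 shorter classes turned positive. Of family differences, DESeq2 called 2 and limma-voom 0. With DESeq2 size factors, the share of stage 15 counts on features called higher was 6.51%, that of stage 28 counts on features called lower 14.1%, and the span medians were -0.54, -0.035, -0.082 and 0.16. The median of 3 to 10 kb was -1.8e-05 with no replicate block and -0.0067 without overlapping features.

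With an adult margin of 2-fold, 211 features called higher were above and 200 below, and 266 called lower were above and 370 below. Low adult features called higher numbered 67 under 0.5 CPM and 206 under 2 CPM. With library totals unscaled, 201 features called lower were between.

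Leaving out 1 library at a time gave 1229 to 2264 calls, 579 to 1311 higher and 650 to 1130 lower. Shares on features called higher ran from 10.8% to 22.4% at stage 28 and from 1.62% to 5.35% at stage 15, those on features called lower from 3.94% to 7.66% and from 13.99% to 20.6%. Higher peaks at stage 28 ran from 510 to 1076 and at stage 6 or 8 from 69 to 226; lower peaks from 237 to 468 at stage 15, 191 to 329 at stage 11 and 200 to 333 at stage 6 or 8. First-seen features ran from 11 to 20, like neighbours from 50 to 153 higher and 44 to 129 lower. Span medians ran from -0.69 to -0.38, -0.10 to 0.081, -0.062 to 0.025 and 0.17 to 0.28, with positive values of the middle classes without family 1 of stage 15 and family 2 of stage 28, and for 3 to 10 kb also without family 2 of stage 15. The log2 change of XLOC_022159 ran from -2.67 to 3.58 (-1.30 without family 1 of stage 15) and that of XLOC_005667 from -1.81 to 3.64. For shares, peaks and first-seen features only the calls were made without the library, and the levels still came from all 10 embryo libraries. The family difference could not be fitted without a library. Where fewer libraries or features enter, that bears on the counts; for other changes the cause was not tested. The part of depth in the calls of weakly expressed features was not tested.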

Other observations

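Further runs of neighbouring tested features are given, chosen after their values were seen. On scaffold_3:75944037-75989188, 4 features on the plus strand, from XLOC_010069 to XLOC_010073, were called lower, with 1 untested feature between them. XLOC_010072 and XLOC_010073 had 0 counts at stage 28, which is at least 10.3-fold and at least 14.4-fold lower. XLOC_010069 had 0.740 and 0.666 CPM at stage 28, against 105 and 17.7 CPM at stage 15 (log2 change -6.56, edgeR, adjusted p = 0.000521). At stage 11 it had 247 CPM in family 1 and 8.91 CPM in family 2. All 4 features were higher in family 1 than in family 2 at stages 11 and 15.

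On scaffold_9:86066567-86702538, 4 features called higher followed each other among the tested features. With 49 untested features between them, they were not direct neighbours on the scaffold. XLOC_027484 had 622 and 608 CPM at stage 28, against 4.38 and 11.2 CPM at stage 15, and at most 0.352 CPM in adults. XLOC_027488 had 78.1 and 36.6 CPM at stage 28, against 1.46 and 4.06 CPM at stage 15. In contrast to XLOC_027484, it had 3847 and 2620 CPM in the adult pool and 881 and 656 CPM in the adult female.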
